A study of Mus musculus with 8 samples.

Results

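The cytosolic ribosomal protein genes were examined in striatum RNA of mice that carry a deletion of the segment syntenic to human 16p11.2. The genes were chosen by symbol, as the rows named Rpl or Rps with a number (and, for some, a trailing letter or digit) together with Rplp0, Rplp1, Rplp2 and Rpsa, without the rows whose symbol marks a pseudogene. The rule found 89 of the 55032 genes in the deposited table, 53 of the large subunit and 36 of the small subunit. The annotation (GENCODE M21, GRCm38) lists 83 of them as protein coding and 6 as processed pseudogenes, namely Rps3a2, Rps3a3, Rps4l, Rps12l1, Rpl6l and Rpl32l.

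Striatum RNA of C57BL/6 females at postnatal day 60, of a line obtained from the Jackson Laboratory, was sequenced from 4 WT and 4 16p11.2+/- animals, 1 library per mouse, and the deletion is present in all cells of the 16p11.2+/- mice on 1 of the 2 chromosome copies. The WT mice were WT-1015, WT-1041, WT-1061 and WT-1063, and the 16p11.2+/- mice, which the labels call DF, were DF-1018, DF-1037, DF-1059 and DF-1062. The libraries held 15125051 to 16523429 counted reads each. Below, 8 values in a row are in this order of mice.

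The eukaryotic cytosolic ribosome consists of a small subunit, which decodes the mRNA, and a large subunit, which forms the peptide bond. Each subunit holds ribosomal RNA and a fixed set of proteins, made in near equal numbers of molecules, whose mRNAs are short, abundant in every cell and carry a run of pyrimidines at the 5′ end (the TOP motif) through which mTOR signalling controls their translation. Because these mRNAs are abundant in the germ line, they have been copied back into the genome many times as processed pseudogenes, which are intronless copies of the spliced mRNA. A read of such a gene can therefore match the gene and its copies equally well.

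The genotype labels were checked on the deleted segment. All 23 tested rows of this segment, among which Aldoa occurs more than once, had lower values in 16p11.2+/- mice, with a median log2 fold change of -0.97. Of these rows, 14 passed an adjusted p of 0.05 (edgeR's quasi-likelihood test, Benjamini-Hochberg), or between 5 (without DF-1018 or DF-1059) and 12 with 1 mouse left out. The FPKM (reads per kilobase of gene, scaled to the reads counted in the library) of Taok2, a kinase gene of the segment, was 17.1, 18.2, 18.8 and 17.0 in WT mice and 8.91, 8.99, 9.04 and 9.82 in 16p11.2+/- mice, which is a log2 fold change of -0.97 ± 0.07 (SE, edgeR adjusted p = 0.000777). The groups did not overlap.

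The tissue label was checked on marker genes, and some libraries stood apart. The 7 cortical glutamatergic neuron markers, of which Nrgn was the most abundant, were all negative (median -0.58, log2), and summed to 404, 344, 278 and 100.2 FPKM in WT mice and to 138, 332, 278 and 47.8 FPKM in 16p11.2+/- mice. All 9 medium spiny neuron markers were expressed in every mouse, and their summed FPKM was 1358, 1006, 1545 and 919 in WT mice and 1443, 353, 1341 and 282 in 16p11.2+/- mice, so DF-1037 and DF-1062 were the lowest. Penk was the most abundant of them, with 111 and 115 FPKM in these mice and between 266 and 456 FPKM in the others. The 8 thalamus markers summed to 39.9, 54.7, 25.7 and 223 FPKM in WT mice and to 128, 229, 40.6 and 197 FPKM in 16p11.2+/- mice, and WT-1063, DF-1018, DF-1037 and DF-1062 were the highest. The choroid plexus markers summed to 4428 FPKM in WT-1063 and 479 FPKM in WT-1015, with Ttr at 4273 and 453 FPKM, and to between 7.67 and 127 FPKM in the other mice. The oligodendrocyte markers were negative in 8 of 8 (median -0.42, log2), and summed to 1857, 1829, 2140 and 1879 FPKM in WT mice and to 1437, 1607, 1584 and 1151 FPKM in 16p11.2+/- mice, without overlap. Member results were recomputed without each mouse, without DF-1037 and DF-1062 together and with the thalamus markers as a covariate; the part of the oligodendrocyte, cortical and choroid plexus markers in them was not tested. In bulk tissue, fewer cells of a type and less RNA per cell cannot be told apart.

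Levels of the members spanned a wide range in striatum. Of the 89 members, 85 passed the expression filter, 50 of the large and 35 of the small subunit. The median of the mean FPKM over the 8 mice was 31.7 for large and 36.0 for small subunit members, against 4.03 for all 18294 genes tested.

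Rplp1, which encodes an acidic protein of the ribosomal stalk, had the highest level, with 288, 356, 384 and 324 FPKM in WT mice and 323, 338, 349 and 284 FPKM in 16p11.2+/- mice. It was followed by Rps15 (mean FPKM 197 over the 8 mice), Rps3a1 (191), Rpl4 (153), Rpl3 (114), Rpl19 (111), Rps14 (102) and Rps6 (100.4). Rps15 and Rps3a1 overlapped in their values over mice, as did Rpl3 and Rpl19, and Rps14 and Rps6, while every value of Rplp1 was above every value of Rps15. Rps6, whose protein is the phosphorylated target of S6 kinase, had between 89.4 and 109 FPKM, and Rps14, a small subunit protein known for its loss in 5q- syndrome, had between 87.9 and 120 FPKM.

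At the other end, some genes for proteins present in every ribosome had low deposited FPKM. Rps10, an essential protein near the mRNA entry of the small subunit, had 0.887, 1.16, 1.11 and 0.937 FPKM in WT mice and 0.681, 1.33, 0.931 and 1.07 FPKM in 16p11.2+/- mice. Rpl24 had a mean of 1.07 FPKM over the 8 mice, Rpl13a, which is widely used as a reference gene for PCR, 4.50 FPKM, Rpl21 6.25 FPKM and Rpl30 6.96 FPKM. Rpl3l, the form of Rpl3 in heart and skeletal muscle, was the tested member of lowest level, with 0.513 FPKM. In every mouse these genes were below the median member, with Rpl30 reaching 13.1 FPKM in DF-1037. Rps10, Rpl24 and Rpl13a stood out among members in that another annotated gene on the same strand, small RNA genes aside, covered a large part of the exons, namely 20.6% by RPS10-NUDT3 in Rps10, 47.0% by Gm28037 in Rpl24 and 29.4% by Gm45713 in Rpl13a. For Rpl19 it was 3.52%. Overlap with genes on the opposite strand was larger in some members that were not low, with 66.2% of the exons of Rpl35 (27.3 FPKM) and 62.3% of those of Rpl23a (78.4 FPKM) covered by any other gene. The rows of RPS10-NUDT3, Gm28037 and Gm45713 had 0 counts in all 8 mice, and neither the strand setting of the counting nor its treatment of reads on exons of more than 1 gene is given in the sources used here.

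**Figure D1:**
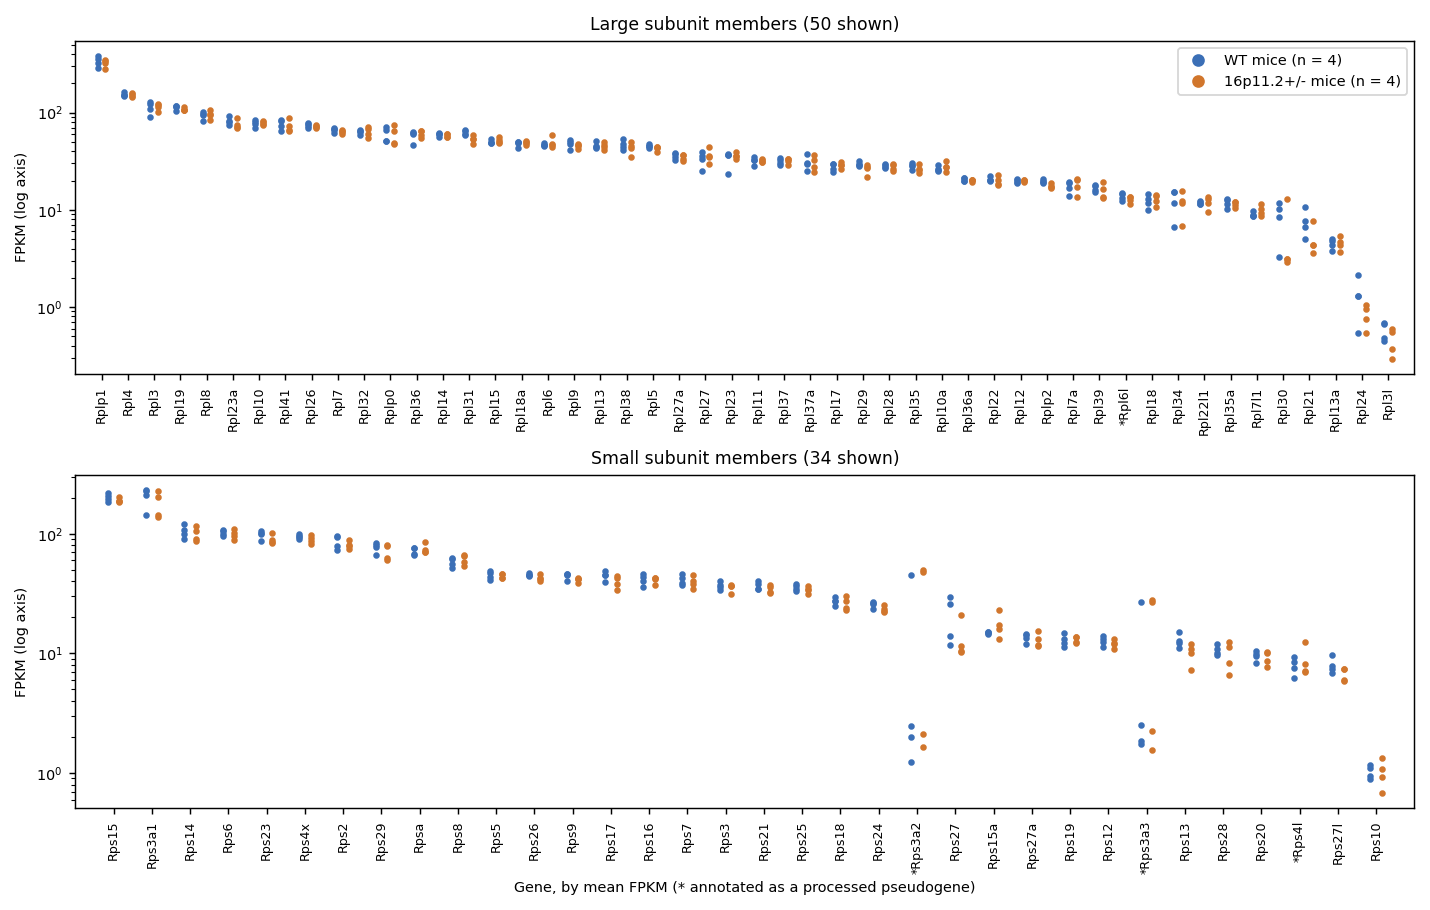
FPKM (vertical log axis) of the tested members, 1 small subunit member left out, in each mouse, ordered by mean level, with the large subunit above and the small subunit below. Each point is 1 mouse, WT in blue and 16p11.2+/- in orange; Rplp1 lies highest, near 331 FPKM, Rpl3l lies lowest, and Rps3a2 and Rps3a3 fall into a high and a low set of mice in both genotypes.

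The level also depends on the gene length used. The deposited FPKM divides by the length of all annotated exons, which for the 81 tested coding members was a median of 2.27 times the length of the main coding transcript. Dividing by the latter moved the median over these members from 35.8 to 85.2 and the middle range (quartiles) from between 16.9 and 63.3 to between 48.2 and 146, and Rps14 (410) then stood above Rplp1 (331). By this length Rpl21 and Rpl30 were at 23.6 and 36.9, still under the lower quartile but farther from Rps10 (2.64), Rpl24 (1.63), Rpl13a (9.09) and Rpl3l (0.613). Levels are therefore compared between genes only with this length in mind, and a comparison of genotypes within a gene is not touched by it.

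Paralogues were low, and each of those below was below the gene it is named for. Rpl22l1 had a mean of 11.9 FPKM against 20.2 for Rpl22, Rpl7l1 9.43 FPKM against 65.1 for Rpl7, and Rps27l, known as a p53 target, 7.29 FPKM against 16.9 for Rps27. Rpl22l1 and Rpl22 did not overlap over mice. Rpl39l, a testis paralogue of Rpl39, had a single read in WT-1061 and 0 in the other mice, and Rpl10l, the testis paralogue of Rpl10, and Rps12l1 had 0 counts in all 8 mice, where 3 counts would be 0.198 CPM (counts scaled to the library total) in the shallowest library. With Rpl32l, which had between 2 and 11 counts per mouse, these are the 4 members that failed the filter. Every 100-base window of Rps12l1 also occurs in another gene, so its 0 is not a limit on its expression. Rpl6l and Rps4l, annotated as pseudogenes, had means of 13.3 and 8.32 FPKM.

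Many members had counts on copies of their sequence as well as on the gene. How reads that map to several places were counted is likewise not given. Counts on a near-identical copy can therefore not be told apart into transcripts of the copy and reads of the gene, and the shares below are shares of counts as deposited. Copies were taken as rows whose symbol marks a pseudogene of a coding member (296) or whose transcript, outside the member's own locus, shared at least 25% of its 31-base windows with it (406 more). Together these 702 rows held 98971 reads over the 8 mice, 10.5% of the reads on the coding members and copies together. Copies were found for 77 members, and 490 of the rows had at least 1 read. The copies that are not themselves members took between 0.0665% and 0.0854% of all counts per mouse.

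The share of reads on copies was highest for Rps10, with 86.6% of the reads on gene and copies, followed by Rpl17 (81.7%), Rpl30 (60.6%), Rpl24 (58.9%) and Rpl21 (58.0%). For Rps10 the gene had 24 to 47 counts per mouse, and Rps10-ps2 on chromosome 16 had 185 to 251 counts per mouse. Rpl17, which has 24 copies, had 27.5 ± 2.71 FPKM in WT and 28.8 ± 2.06 FPKM in 16p11.2+/- mice (SD, n = 4), and Rpl17-ps10 on chromosome 7 had 960 to 1239 counts per mouse. The 29 coding members with more than 50% of their 100-base windows in a gene elsewhere had a median of 40.5 FPKM and the other 54 had 35.1 FPKM.

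The copies described here nearly match the coding sequence of the member. Rps3a1 (ENSMUSG00000028081, chr3:86137940-86142702, minus strand) encodes a small subunit protein of the mRNA exit side, and its coding region of 792 bases differed from the intronless row Rps3a2 (chr14:88123017-88123808) at 4 positions and from Rps3a3 (chr13:108670603-108671397) at 8 positions. The longest stretch without a difference was 317 bases for Rps3a2 and 215 bases for Rps3a3. A stretch of 60 coding bases (201 to 260, GENCODE M21 transcripts) is shown because it holds bases that separate the rows. Capitals in a copy mark bases that differ from Rps3a1, and capitals in Rps3a1 mark bases at which a copy differs (GRCm38, chr3:86141333-86141392 minus, chr14:88123549-88123608 minus and chr13:108670803-108670862 plus strand).
Rps3a1: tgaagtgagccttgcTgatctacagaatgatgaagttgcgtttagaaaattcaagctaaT
Rps3a2: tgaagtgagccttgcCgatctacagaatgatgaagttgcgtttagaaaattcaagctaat
Rps3a3: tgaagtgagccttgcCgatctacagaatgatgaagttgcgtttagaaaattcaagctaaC

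Rps3a1 and its copies differed in opposite directions between mice. Rps3a1 had 3152, 3469, 3628 and 2252 counts in WT mice and 3000, 3391, 2289 and 2249 counts in 16p11.2+/- mice. Rps3a2 had 24, 30, 16 and 581 counts in WT mice and 20, 26, 643 and 628 counts in 16p11.2+/- mice, and Rps3a3 had 21, 31, 24 and 349 counts in WT mice and 27, 19, 351 and 365 counts in 16p11.2+/- mice. In WT-1063, DF-1059 and DF-1062 both copies were high and Rps3a1 was low, and in the other 5 mice both copies had at most 31 counts and Rps3a1 was high, so the split of mice crossed the genotypes. In CPM with TMM factors, the coefficient of variation (CV) over the 8 mice was 22.9% for Rps3a1 and 7.62% for Rps3a1 and its 6 copies summed.

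Rps27 and Rps27rt cannot be told apart in their coding sequence. Rps27 (ENSMUSG00000090733, chr3:90212522-90213651) encodes a zinc finger protein of the small subunit, and Rps27rt (chr9:114982366-114982739) is an intronless copy annotated as protein coding, which the symbol rule leaves out. All 252 coding bases were identical, as in bases 7 to 66, in lower case since no base differs (GRCm38, chr3:90213242-90213301 and chr9:114982642-114982701, both minus strand).
Rps27: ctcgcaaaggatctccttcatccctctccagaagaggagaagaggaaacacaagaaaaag
Rps27rt: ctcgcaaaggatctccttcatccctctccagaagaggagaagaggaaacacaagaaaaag

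Rps27 had 409, 188, 239 and 503 counts in WT mice and 164, 185, 357 and 180 counts in 16p11.2+/- mice. Rps27rt had 185, 491, 431 and 104 counts in WT mice and 426, 452, 245 and 370 counts in 16p11.2+/- mice. Mice WT-1015, WT-1063 and DF-1059 were high for Rps27 and low for Rps27rt, and the other 5 mice the reverse. The CV was 46.1% for Rps27 alone and 10.7% for Rps27 with its 5 copies.

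Rpl30, a large subunit protein, and the intronless row Gm12191 on chromosome 11 differed at 1 of 345 coding bases, which is the capital at the end of these 60 bases (coding bases 37 to 96, GRCm38, chr15:34442706-34442765 and chr11:49678962-49679021, both minus strand).
Rpl30: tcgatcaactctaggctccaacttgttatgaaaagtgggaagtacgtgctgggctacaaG
Gm12191: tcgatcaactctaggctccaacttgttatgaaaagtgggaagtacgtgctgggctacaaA

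Rpl30 had 533, 468, 418 and 159 counts in WT mice and 133, 606, 152 and 157 counts in 16p11.2+/- mice, and Gm12191 had 170, 358, 379 and 604 counts in WT mice and 457, 152, 554 and 551 counts in 16p11.2+/- mice. Rpl30 was high and Gm12191 lower in WT-1015, WT-1041, WT-1061 and DF-1037, and the reverse held in the other 4 mice. The CV was 62.8% for Rpl30, the highest of any tested coding member, and 12.5% for Rpl30 with its 14 copies.

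Rplp0, the stalk base protein and a common reference gene, differed from Gm8730 on chromosome 8 at 12 of 951 coding bases, of which 3 fall in coding bases 388 to 447, in capitals (GRCm38, chr5:115561168-115561227 plus and chr8:102865352-102865411 minus strand).
Rplp0: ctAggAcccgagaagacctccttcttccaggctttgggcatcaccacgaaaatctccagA
Gm8730: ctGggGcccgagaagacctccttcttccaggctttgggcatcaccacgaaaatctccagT

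Gm8730 had 7, 398, 461 and 20 counts in WT mice and 13, 14, 413 and 465 counts in 16p11.2+/- mice. The FPKM of Rplp0 was 66.1, 51.5, 51.3 and 71.4 in WT mice and 65.0, 74.7, 47.7 and 48.7 in 16p11.2+/- mice. The 4 mice with the most reads on Gm8730 (WT-1041, WT-1061, DF-1059 and DF-1062) were those with the lowest Rplp0, and the CV fell from 19.3% for Rplp0 to 5.47% for gene and copies. DF-1059 and DF-1062 were also among the mice high for Rps3a2, and WT-1041 and WT-1061 were not.

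Similar splits were seen for other copies. Rpl3-ps1, which differs from Rpl3 at 2 of 1209 coding bases, had 1235 counts in WT-1061 and 1667 in DF-1062, against 260 to 292 in the other 6 mice. Gm10020, which differs from Rpl15 at 2 of 612 coding bases, had 108, 116, 100 and 97 counts in WT-1061, WT-1063, DF-1018 and DF-1059 and at most 3 counts in the other 4. Rpl15 itself was not lower in these mice, with 123 to 133 CPM (TMM factors) against 120 to 132 CPM in the other 4. Its CV was 4.58% alone and 6.23% with its 17 copies. Of the 41 copies with at least 100 counts in some mouse, 8 changed 5-fold or more between mice (highest plus 1 over lowest plus 1). The mice high for Gm10020, Gm8730, Rps3a2, Rps3a3, Rps13-ps1 and Rpl3-ps1 were of both genotypes, while Rps13-ps2 was highest in DF-1037 and DF-1062 (72 and 103 counts). Gm9794, a copy of Rpl23, had 666 counts against 633 for Rpl23 in WT-1015, and between 483 and 664 counts, below Rpl23, in the other 7 mice. Rpl14-ps1 was below Rpl14 in all 8 mice, with 564 to 751 counts, and held 29.8% of the reads on gene and copy.

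**Figure D2:**
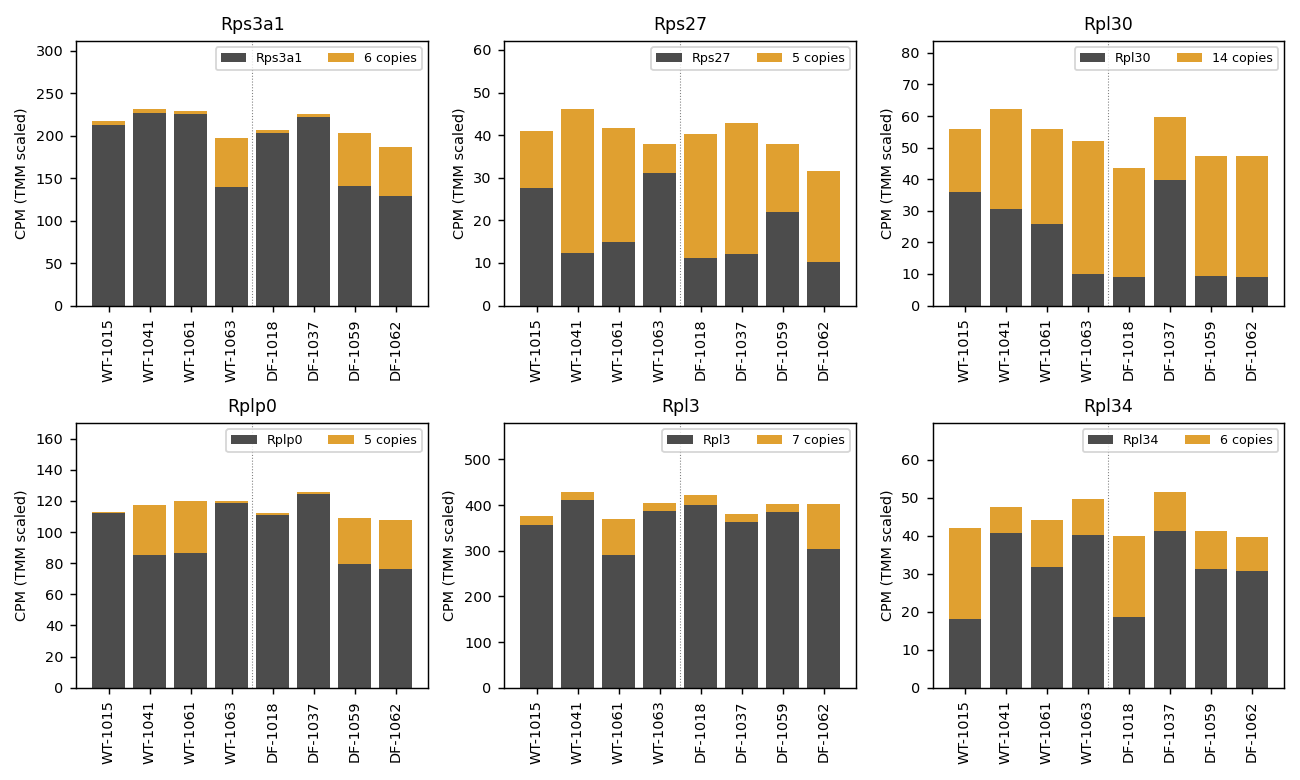
CPM with TMM factors (vertical axis) of 6 members (dark grey) and of their copies (yellow), stacked, in each of the 8 mice. The dotted line separates WT (left) from 16p11.2+/- mice (right); in Rps3a1 the copies take 3.29 to 4.76 CPM in 5 mice and 57.3 to 61.7 CPM in the other 3, while the sum stays between 186 and 231 CPM.

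Summing gene and copies lowered the variation of most members. Among the 77 members with copies, the CV of the sum was below that of the gene alone in 56, and in 8 (Rpl3, Rpl30, Rpl34, Rplp0, Rps10, Rps27, Rps3a1 and Rps7) it was at most 0.5 of it. These families were described after their values were seen. For Rps10 the CV was 18.8%, where its low counts alone would give 16.4%, and that of its copies alone was 8.69%. The median CV was 9.18% for the gene alone and 8.20% for the sum. Of the genes with a mean of at least 100 counts, the 81 members had a median CV of 8.77% and all 11871 genes one of 12.4%.

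**Figure D3:**
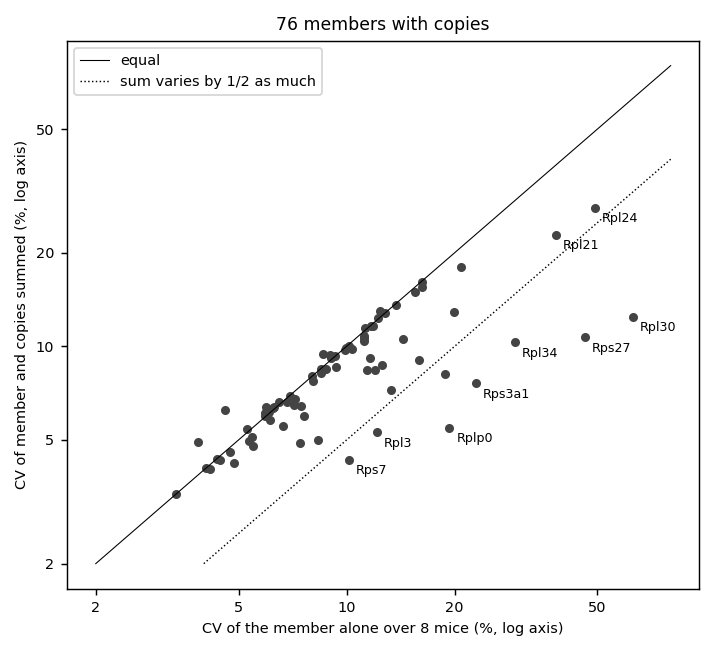
CV over the 8 mice, in percent, of each member alone (horizontal log axis) and of the member summed with its copies (vertical log axis) for the 76 members with copies and a mean above 1 CPM. Points under the solid line vary less when summed, and Rps7, Rpl3, Rps10, Rplp0, Rps3a1, Rpl34, Rps27 and Rpl30 lie below the dotted line, where the CV is at most 0.5 of that of the member.

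Between genotypes, the members differed little, and none passed the adjusted threshold. The comparison asked whether the deletion goes with a change in mRNA of the translation machinery. Of the 85 tested members 0 had an adjusted p under 0.05 (edgeR, lowest adjusted p = 0.859, and 0 with DESeq2 and limma-voom as well), where 0.109% of all 18294 genes tested passed. At an unadjusted p under 0.05, 2 members were lower in 16p11.2+/- mice, 2.35% of the 85, beside 2.37% of all genes, and 0 were higher, beside 1.95% of all genes. With no overlap between groups in CPM with TMM factors, 2 members were lower, beside 1.71% of all genes, and 0 were higher, beside 1.14%. These shares are near the background or below it. With 1 mouse left out, between 0 (without WT-1061 or DF-1062) and 6 (without DF-1037) members had an unadjusted p under 0.05. The share of all genes in each of these fits is not given here, so these counts have no background beside them.

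The size of the differences was small and mostly of 1 sign. The log2 fold change was negative in 66 of the 85 members (77.6%, against 51.8% of all genes tested), in 38 of 50 large and 28 of 35 small subunit members. The median log2 fold change was -0.06 for large and -0.08 for small subunit members, beside -0.01 for all genes tested, and 74 of the 85 members lay within 0.2 of 0. Members share libraries and are not independent, so this count is a description of these 8 libraries. Without 1 mouse at a time, the number with a negative log2 fold change was between 54 (without WT-1041) and 71 (without WT-1015).

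The members with the smallest p and a negative log2 fold change were Rpl31, Rplp2, Rpl21, Rps13 and Rps24. Rplp2, an acidic stalk protein that pairs with Rplp1 on the ribosome, had 19.0, 20.9, 19.9 and 19.3 FPKM in WT mice and 17.1, 18.9, 17.5 and 16.7 FPKM in 16p11.2+/- mice. All 16p11.2+/- values were below all WT values. Its log2 fold change was -0.19 ± 0.08 (SE, edgeR adjusted p = 0.859). At an unadjusted p of 0.05 it passed with all mice and did not without WT-1015, WT-1041, WT-1061, DF-1018, DF-1059 or DF-1062, nor with no filter on low counts, nor with the thalamus covariate. Its partners in the stalk differed by less than their error, with a log2 fold change of -0.08 ± 0.12 for Rplp1 and -0.04 ± 0.18 for Rplp0 (SE).

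Rpl31, a protein near the peptide exit of the large subunit, had 59.8, 66.9, 64.5 and 58.2 FPKM in WT mice and 54.0, 54.1, 58.4 and 48.1 FPKM in 16p11.2+/- mice. Values of WT-1063 and DF-1059 met at 58.2 and 58.4 FPKM, and the other values were separated. Its log2 fold change was -0.24 ± 0.09 (SE, edgeR adjusted p = 0.859). Rpl31-ps8, a copy on chromosome 15, had 135, 159, 185 and 169 counts in WT mice and 186, 247, 211 and 215 counts in 16p11.2+/- mice, a log2 fold change of 0.38 in the opposite direction (edgeR adjusted p = 0.859). With the 25 copies added, Rpl31 was at -0.15. It passed an unadjusted p of 0.05 as counted, but not with these copies added, nor without WT-1041, WT-1061 or DF-1062, nor without DF-1037 and DF-1062 together, nor with the thalamus covariate.

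Rpl21 had a log2 fold change of -0.61 ± 0.29 (SE), with 7.66, 5.07, 6.69 and 10.6 FPKM in WT mice and 4.34, 7.67, 3.56 and 4.38 FPKM in 16p11.2+/- mice. It has 55 copies, the most of any member, and DF-1037 alone lay within the WT range. Rps13 had -0.35 ± 0.18 (SE) and Rps24, a small subunit protein mutated in Diamond-Blackfan anaemia, -0.15 ± 0.08 (SE). Rps26, another gene of this anaemia, had no overlap in CPM with TMM factors. In FPKM, DF-1062 with 46.3 lay inside the WT range of 44.5 to 47.0. The log2 fold change of Rps26 was -0.11 ± 0.06 (SE).

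Among members with a positive log2 fold change, the smallest p was that of Rps15a, a small subunit protein, with 14.5, 15.1, 14.9 and 15.1 FPKM in WT mice and 13.2, 15.9, 17.3 and 22.9 FPKM in 16p11.2+/- mice. The 16p11.2+/- mice lay on both sides of the WT range. The log2 fold change was 0.19 ± 0.13 (SE). Rpl7l1 followed at 0.12 ± 0.09 (SE). Rps3a2 and Rps3a3 had the largest positive values, 0.96 ± 1.36 and 0.78 ± 1.15 (SE), with an error above the value. Without WT-1063, the only WT mouse high for these copies, they were at 3.69 and 2.79.

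The largest negative values belonged to genes with more than 50% of the counts of gene and copies on copies. A high share on copies did not always go with a large value. Rps10 and Rpl17, with the highest shares, were at -0.05 ± 0.23 and 0.04 ± 0.10 (SE). Rpl24, which had only 9 to 34 counts per mouse, was at -0.69 ± 0.41, Rps27 at -0.63 ± 0.35 and Rpl30 at -0.61 ± 0.58 (SE), and with the copies added they were at -0.18, -0.13 and -0.19. Rps3a1 moved from -0.21 to -0.09. Of the 82 members in both fits, 4 had a log2 fold change beyond 0.5 in size as counted and 0 with copies added, where the largest size was 0.38 (Rpl21). With copies added, Rpl21 and Rps13 were under an unadjusted p of 0.05, which they were not as counted, and Rplp2 was in both. As counted, 65 of these 82 were negative, and with copies added 66. These values as counted rest in part on single mice. Rpl24 passed an unadjusted p of 0.05 (edgeR) without WT-1063, Rps27 without WT-1041 or DF-1059, and Rpl30 without DF-1037, which they did not with all mice.

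**Figure D4:**
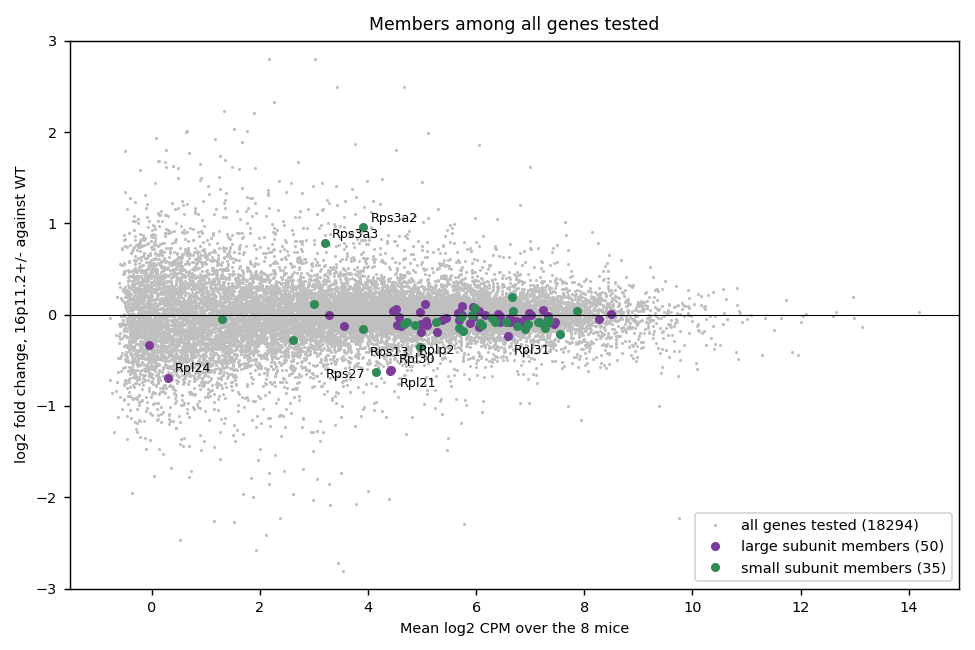
Log2 fold change of 16p11.2+/- against WT (vertical axis) over mean log2 CPM (horizontal axis) for all 18294 genes tested (grey), the 50 large (purple) and the 35 small subunit members (green). Most members lie within 0.2 of 0, and the members farthest from 0 are Rps3a2 and Rps3a3 above and Rpl24, Rps27, Rpl30 and Rpl21 below; 14 genes beyond 3 on the vertical axis are not shown.

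Members with known roles outside bulk translation also differed little between genotypes. Rpl5 and Rpl11, which bind Mdm2 when ribosome assembly fails, had log2 fold changes of -0.10 ± 0.08 and -0.02 ± 0.08 (SE). Rps19, the first gene found in Diamond-Blackfan anaemia, had 12.8 ± 1.48 FPKM in WT and 13.0 ± 0.85 FPKM in 16p11.2+/- mice (SD, n = 4). Rpl10, Rps6 and Rpsa, the last also known as the laminin receptor precursor, were at -0.02 ± 0.08, -0.06 ± 0.07 and 0.04 ± 0.08 (SE). None of these members passed the adjusted or the unadjusted threshold.

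Summed over all members, ribosomal protein mRNA took 0.639%, 0.721%, 0.687% and 0.689% of all counts in WT mice and 0.628%, 0.691%, 0.675% and 0.673% in 16p11.2+/- mice. The groups overlapped, with means of 0.684% ± 0.0338 and 0.667% ± 0.0273 (SD, n = 4). Mice WT-1015 and DF-1018 were the lowest of their groups. Counts on large subunit members were 1.42, 1.41, 1.38 and 1.44 times those on small subunit members in WT mice and 1.502, 1.43, 1.41 and 1.40 times in 16p11.2+/- mice, the highest ratio being that of DF-1018. The 16p11.2+/- mice lowest in medium spiny neuron markers (DF-1037 and DF-1062) lay between the other mice in this share. In summed CPM with TMM factors, DF-1062 was the lowest of the 8 mice (6371, with DF-1018 next at 6465) and DF-1037 was at 6935. Mitochondrially encoded genes took between 5.002% and 7.02% of counts, with DF-1062 lowest.

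**Figure D5:**
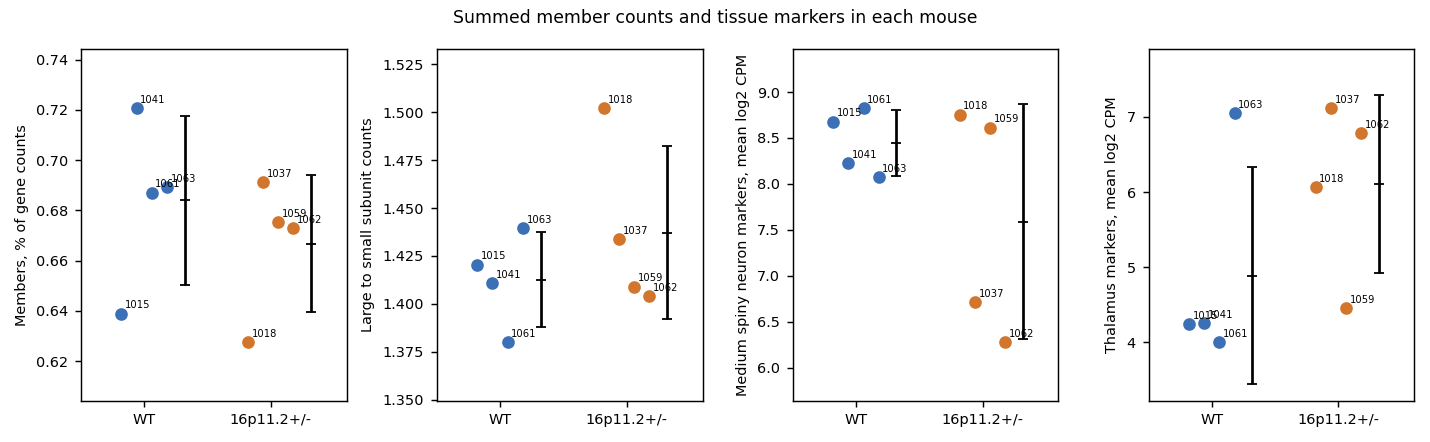
From left to right, the percent of gene counts on members, the ratio of large to small subunit counts, and the mean log2 CPM of medium spiny neuron markers and of thalamus markers, in each mouse (points, labelled by mouse number; axes do not start at 0). Bars show mean and SD of 4 mice; the member share overlaps between genotypes, and DF-1037 and DF-1062 stand apart in medium spiny neuron markers.

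Other genes of the translation machinery were read from the same fit, and 0 of them passed the adjusted threshold (edgeR, adjusted p of at least 0.859, and 0 with DESeq2 and limma-voom). The 77 tested mitochondrial ribosomal proteins, which build the separate ribosome of mitochondria, were positive in 55 and negative in 22, with a median log2 fold change of 0.06, where 51.8% of all genes were negative. Of these, Mrpl23, Mrpl35, Mrpl46 and Mrps16 had an unadjusted p under 0.05, all with positive values of 0.19 to 0.36, beside 1.95% of all genes higher and 2.37% lower. Without DF-1037 and DF-1062 the median of this list was -0.01, so its sign rests on these mice. Their summed FPKM was 626, 649, 643 and 686 in WT mice and 622, 725, 661 and 746 in 16p11.2+/- mice, where DF-1037 and DF-1062 were the highest.

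The 10 genes of translation elongation, which include the Eef2 kinase Eef2k and Eef1e1 of the tRNA synthetase complex, had a median of 0.10 and 9 positive values, with Eif5a2, which carries hypusine, at 0.32 ± 0.20 (SE). Of the 14 genes for subunits of initiation factor 3, which joins the small subunit to mRNA, 7 were negative and 7 positive, and Eif3e (log2 fold change -0.17) and Eif3m (-0.15) had no overlap between groups, as did 1.71% of all genes in this direction. Eif3e had 10.1 ± 0.720 FPKM in WT and 9.11 ± 0.328 FPKM in 16p11.2+/- mice (SD, n = 4). The 19 other initiation factors had 9 negative and 10 positive values, with the smallest p for Eif4a1, the cap-binding complex helicase (-0.10).

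A list of 11 other genes with TOP mRNAs, which leaves out the translation factors above although several of those are TOP mRNAs too, was negative in 10, with a median of -0.08, beside 51.8% negative of all genes. Snhg8, a snoRNA host gene, had 8.68, 8.42, 7.87 and 9.06 FPKM in WT mice and 5.69, 7.03, 6.71 and 5.89 FPKM in 16p11.2+/- mice without overlap (log2 fold change -0.45). Vim, an intermediate filament gene, was at -0.38. The 30 ribosome assembly genes had 15 negative and 15 positive values, with Ubtf, the nucleolar factor of RNA polymerase I, at -0.28 (edgeR adjusted p = 0.859) and Wdr12, of the PeBoW complex, at 0.21. Ubtf had 21.7, 20.5, 21.5 and 20.4 FPKM in WT mice and 16.9, 19.0, 17.4 and 17.2 FPKM in 16p11.2+/- mice, and the groups did not overlap. The 20 genes of mTOR and TOP control had 10 values of each sign, the smallest p being that of Akt1 (0.15). Of 5 tested ribosomal proteins outside the symbol rule, such as Fau and Rack1, 2 were negative and 3 positive. Among the 121 copies of members that were tested, 76 were negative and 45 positive, with 4 lower and 2 higher at an unadjusted p under 0.05 and 0 past the adjusted threshold (edgeR). Of all genes, 51.8% were negative, 2.37% lower and 1.95% higher at that unadjusted threshold.

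Promoter sequence was compared because the 5′ TOP motif is known from this gene family. RefSeq promoters (GRCm38.p6, 250 bases before to 50 from the start) matched 64 of the 89 members, with 76 starts. Rplp1, Rpl6l, Rpl3, Rps14, Rpl17, Rpl21 and Rpl30 are among those not matched. A C at the annotated start followed by at least 4 bases that are each C or T was found at 14 of the 76 starts (18.4%) and at 2.51% of all 32851 promoters, and within 10 bases of the start in 55.3% and 30.7%. On either strand, the letters CCGGAA stood in 47.4% of member promoters and 14.9% of all promoters, GGGCGG in 59.2% and 35.7%, AAGATGG in 15.8% and 6.34%, and TATAAA in 10.5% and 13.6%. The motifs may share bases.

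The 30 bases around the start (15 before, 15 from it) are printed for the most abundant small subunit member in the table (Rps15), the members of smallest p in each direction (Rpl31 and Rps15a), and, chosen after their sequence was seen, Rplp2, Rps6 and Rpl15. The match closest to the annotated start, within 10 bases of it, is in capitals, and other or longer runs of C and T are left in lower case. A match is absent within 10 bases of the start in Rps15, whose window ends before the GENCODE start of the gene (80292453). In the order printed they lie at chr10:80292416-80292445 (plus), chr1:39367836-39367865 (plus), chr7:118116133-118116162 (minus), chr7:141447636-141447665 (plus), chr4:86857353-86857382 (minus) and chr14:18270972-18271001 (minus strand).
Rps15: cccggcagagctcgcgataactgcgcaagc
Rpl31: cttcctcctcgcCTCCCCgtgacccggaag
Rps15a: ctctctttctgccatCTTCCCTCgccggtg
Rplp2: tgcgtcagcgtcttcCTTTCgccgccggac
Rps6: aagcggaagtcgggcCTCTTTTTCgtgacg
Rpl15: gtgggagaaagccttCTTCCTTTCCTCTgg

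Among these, Rplp2 and Rps15a both start with such a run, and their log2 fold changes were -0.19 and 0.19. A link between the motif and the fold change was not tested. A match to these letters is a description of the sequence and not of binding or translation.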

How the data were processed

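Total RNA of striatum was sequenced for the authors by a service company on an Illumina HiSeq 2000 (paired end), 1 library per mouse. Adapter and low quality sequence was removed, reads were mapped with Hisat2 and counted with Htseq-count, and the authors deposited the raw read count of each gene in each mouse. The submitters' processing notes instead name Bowtie 0.12.2, mm8 and mm9. The deposited FPKM is the count per kilobase of gene length, scaled to the reads counted in the library, and this length was within 1% of the exon length of GENCODE M21 (GRCm38) for 96.2% of genes compared. A deposited table of the authors' own comparison (group means, fold changes and p-values) was not used.

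Counts were tested with edgeR 4.0.16 (TMM, genes kept by filterByExpr at 10 counts per library and 15 in total, quasi-likelihood test, Benjamini-Hochberg, threshold 0.05, two-sided) in R 4.3.3 over all 18294 genes. The alternatives tried were limma 3.58.1 (voom on counts, trend on log2 FPKM), DESeq2 1.42.0, other factors and filters, each mouse left out, a thalamus covariate, and copies added to members. The last, by sequence, and leaving out DF-1037 and DF-1062 were chosen after seeing the data. Shared windows were counted in GENCODE M21 transcripts, so copies outside the annotation were not searched. Precision is set by 15125051 to 16523429 counts per mouse and by 4 mice per group. Code was tested on simulated data.

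Members and lists were chosen with earlier results of these data known. Named members were fixed by rule: the 8 of highest and 5 tested of lowest FPKM, the 5 smallest p in each direction, paralogues, untested members, those without overlap, 9 with known roles, the 5 with the highest share of reads on copies, and of each other list the gene of smallest p. Rps3a1, Rps27, Rpl30 and Rplp0 with their copies were described after their values were seen. A member and a marker gene that these rules name are not reported here, and stay in the counts and sums.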

Additional observations from a re-analysis of the deposited data

Results flagged for a closer look

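A single mouse far from the 3 others of its group (by Dixon's 95% critical value for its gap to the nearest) was seen in 8 of the measures examined, over 98 groups of 4 mice, where chance gives about 1 in 20. Rps3a2 and Rps3a3 each enter with both FPKM and counts of the same mouse, so fewer than 8 of these are separate observations. The copies among the measures were chosen after their values were seen, so the rate of 1 in 20 does not apply to them. Rps3a2 was at 45.4 FPKM (581 counts) in WT-1063 against 1.23 to 2.47 FPKM in the other WT mice, and Rps3a3 at 27.2 FPKM (349 counts) in the same mouse against 1.75 to 2.55 FPKM. Rpl30 was at 13.1 FPKM in DF-1037 against 2.89 to 3.15 FPKM in the others of its group. Rpl3-ps1 had 1235 counts in WT-1061 against 271 to 289 in the other WT mice. Small subunit members took 0.251% of counts in DF-1018 against 0.280% to 0.284% in the others. Rpl7l1 was at 9.79 FPKM in WT-1063 against 8.61 to 8.76 FPKM. The cause of these differences was not tested.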

How the results depend on the processing

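No paired analysis was possible because no mouse number occurs in both genotypes. With 4 mice per group and the counts of these libraries, log2 fold changes of the size of the members' median were not detectable for single genes. The count of all genes past the adjusted threshold was 20 with edgeR, 31 with DESeq2, between 8 and 18 with 1 mouse left out, and 11 without DF-1037 and DF-1062. For the rows of the deleted segment it was 14, between 5 and 12 with 1 mouse left out, and 7 without DF-1037 and DF-1062. Members past the adjusted threshold were 0 under every alternative run, and members at an unadjusted p under 0.05 were 2, between 0 (without WT-1061 or DF-1062) and 6 (without DF-1037) with 1 mouse left out, and 2 or 3 otherwise. Rpl31 and Rplp2 both passed this unadjusted threshold under limma-voom, limma-trend, RLE factors and library totals, and neither did with the thalamus covariate (Rpl21 and Rps27l instead), which changes the fit by 1 term. The median log2 fold change stayed negative under every alternative, between -0.07 and -0.03 for large and between -0.11 and -0.04 for small subunit members with 1 mouse left out. The log2 ratio of summed member share was -0.04, between -0.07 and -0.01 with 1 mouse left out, and -0.07 at the lowest under the other alternatives. Genes of the other translation lists at an unadjusted p under 0.05 were 10, between 4 and 12 with 1 mouse left out, 6 without a filter and 6 without DF-1037 and DF-1062. These lists held 5, 10, 14, 19, 11, 30, 20 and 77 tested genes. With all mice, 2.37% of all genes were lower and 1.95% higher at that threshold. For the other fits, the shares of all genes at an unadjusted p under 0.05 are not given here. Copies at this threshold were 6, between 6 and 11 with 1 mouse left out, 17 without a filter, where more rows are tested, and 4 at the lowest (thalamus covariate, without DF-1037 and DF-1062, or pseudogene symbols only). Of 57 named genes, 16 changed the sign of the log2 fold change under some alternative without passing the adjusted threshold in either fit, in 60 of 1134 fits, and 0 gained or lost a call. Why these values changed was not tested.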
